A study of Homo sapiens with 27 samples.

Results

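Of 9910 RNA 3′ ends that were listed in all 27 libraries on the 22 autosomes, 2385 had no other such end for at least 500 kb upstream on their strand. They are called isolated ends here. They were chosen by listing and position alone. The 27 lists were first joined: same-strand peaks sharing 1 base or more became one, 233020 in all. A joined peak listed in every library, with 5 counts or more in each, was a core end, and the distance to the next core end upstream decided the rest. The 2491 core ends with another core end 3 to 50 kb upstream, called close ends, served for comparison. The long stretch stands in for a long gene by position only, since one stretch can span several genes or a gene that is not expressed. Because listing in all libraries was required, an end lost completely under a drug cannot be among them.

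Most messenger RNAs end where the nascent transcript is cleaved downstream of a polyadenylation signal and a poly(A) tail is added. Many genes also carry signals inside introns, and using one of them gives a short transcript in place of the full-length one. Platinum drugs form crosslinks on DNA that block RNA polymerase II, and a polymerase that crosses a long gene meets more of them than one that crosses a short gene. The far end of a long gene is therefore a place where a change in the number of complete transcripts could be read.

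The libraries came from 3 lines of non-small cell lung cancer, H358, A549 and A549R, in 9 groups of 3. H358 RNA was from total cells treated with DMSO (the vehicle), cisplatin or oxaliplatin. A549 and A549R RNA was from the cytosol, and A549 RNA also from heavy polysomes (messages loaded with many ribosomes), each after DMSO or cisplatin. Both drugs were given at 100 µM, the times of exposure were not used here, and A549R was read as the cisplatin-resistant counterpart of A549.

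Library totals ran from 3024814 to 11997535 counts, and the smallest listed count was 5. The lists were of 2 kinds, with 73.1% to 79.4% of peak numbers listed in 16 long lists and 30.7% to 42.3% in 11 short lists. The short lists were those of all H358 oxaliplatin and A549 cytosol libraries and of polysome replicate 3 of both treatments. List kind and oxaliplatin cannot be told apart in H358. The labels do not say that replicates were separate cultures, so p-values measure the spread between these samples only. Ends are named by their position as listed, read as hg19. No gene name, intron or exon is given, and the identity of the lines could not be checked by marker genes for the same reason.

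The isolated ends were spread over both strands, with 1215 on the plus and 1170 on the minus strand. They made up 44.0% of core ends on chromosome 13 (62 of 141), 41.3% on chromosome 18 and 40.1% on chromosome 4, but 7.05% on chromosome 19 (48 of 681) and 11.9% on chromosome 17. Their median stretch was 1.29 Mb, and 23 had no further core end on that side of the chromosome. The stretches were empty of core ends only. Every one of them held other listed peaks, with a median of 21 and a range of 2 to 85 in the 500 kb before the end. The gaps before close ends, with a median length of 16971 bases, held a median of 4. A total of 881 isolated ends (36.9%) were also without a core end for 500 kb downstream, and 396 had one within 3 kb downstream.

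Isolated ends were the weaker class. Their median level over the 27 libraries was 14.8 CPM (counts per 1000000 counts in the list), against 23.1 for close ends and 17.8 for all core ends. Their width was similar, with medians of 426 and 437 bases. A single isolated end held from 5 to 87693 counts in a library, with a median of 74. The highest level was that of chr12:52679669-52680283 (minus), at a mean of 4713 CPM on the same scale. In H358 that end had 98.2, 99.2 and 70.1 CPM with DMSO, 175, 130 and 171 with cisplatin and 179, 249 and 257 with oxaliplatin. From here on CPM counts the peaks tested together only, scaled within H358, within cytosol and within polysomes separately, so that levels are not compared between those 3. Neither drug group overlapped DMSO at this end, and it rose with both in edgeR's quasi-likelihood test, by 0.83 ± 0.23 with cisplatin (log2 ± SE, adjusted p = 0.0091) and by 1.35 ± 0.23 with oxaliplatin (adjusted p = 0.000531).

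At the 500 kb limit itself, the 5 isolated ends just inside had stretches of 500.076 to 500.93 kb. In H358, DMSO and cisplatin means (± SD, n = 3) were 65.2 ± 16.9 and 22.5 ± 2.99 CPM at chr1:44686739-44687310 (minus), and 72.1 ± 17.5 and 13.2 ± 5.18 at chr7:127732044-127732672 (plus). The other 3, chr9:127119035-127119200 (minus), chr4:26432343-26432939 (plus) and chr10:89604371-89604533 (plus), had DMSO means of 5.23 to 25.6 CPM and cisplatin means of 4.46 to 23.4. The 5 core ends just outside, with stretches of 498.515 to 499.875 kb, were chr2:42077319-42077752 (minus), chr3:185764092-185764437 (minus), chr14:21964716-21965653 (plus), chr17:76169922-76170745 (minus) and chr14:93170141-93170717 (minus). Their H358 means ran from 11.3 to 507.7 CPM with DMSO and from 7.001 to 543.8 with cisplatin. These values describe the limit and were not tested as a set.

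In H358 total RNA, cisplatin moved isolated ends in both directions. Of the 2385 isolated ends, 262 rose and 392 fell, and the median log2 change was -0.07. Over all 14358 peaks tested, 11.9% rose and 14.5% fell (26.4% in all), with a median of -0.04, and 251 of the 2491 close ends rose and 383 fell, with a median of -0.08. The isolated ends' share of calls was thus near that of all peaks. In these bulk samples, fewer cells of a kind and less RNA per cell cannot be told apart. By stretch length, 162 of 920 ends with 500 kb to 1 Mb fell (17.6%), 106 of 682 with 1 to 2 Mb (15.5%) and 124 of 783 with 2 Mb or more (15.8%). Split by level into low, middle and high core ends of equal number, middle ends had the lowest medians, -0.22 for 824 isolated ends (76 rose, 176 fell) and -0.17 for 807 close ends (65 rose, 130 fell). Low ends had medians of -0.04 for isolated and -0.05 for close ends, and high ends 0.03 and -0.04.

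The falls of H358 isolated ends reached more than 10-fold. The steepest was at chr16:81744519-81745373 (plus), from 175, 88.0 and 93.1 CPM with DMSO to 8.93, 10.6 and 7.12 with cisplatin, a change of -3.74 ± 0.36 (log2 ± SE, adjusted p = 5.03e-08). At chr8:118811597-118812143 (minus), which closes a stretch of 1182.67 kb, values went from 81.1, 59.0 and 58.6 to 6.94, 5.82 and 3.32 CPM (-3.57 ± 0.33, adjusted p = 1.69e-08). The groups did not overlap at either end. At chr3:67425139-67426246 (minus) the counts went from 23.02, 42.4 and 17.6 to 2.23, 2.65 and 2.37 CPM, a change of -3.53. At chr3:126755860-126756237 (plus) they went from 21.98, 14.9 and 29.4 to 1.98, 2.65 and 2.37 CPM, and at chr3:99879264-99879350 (plus) from 18.3, 39.5 and 36.3 to 1.49, 5.82 and 3.80. These last 2 fell by 3.26 and 3.22 on the log2 scale. At chr3:67425139-67426246 and chr3:126755860-126756237 the values in cisplatin replicates 2 and 3 were 5 counts each, the smallest count a list holds, and a core end cannot go lower.

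Other isolated ends rose by as much. At chr6:156869025-156869185 (minus) values went from 46.5, 45.1 and 25.8 CPM with DMSO to 223, 628 and 589 with cisplatin (3.60 ± 0.35, adjusted p = 1.83e-07). At chr10:37890353-37890395 (minus) they went from 6.68, 7.59 and 4.86 to 43.2, 134 and 49.4 CPM (3.52 ± 0.40, adjusted p = 9.42e-07). The 3 other largest rises were at chr1:238106952-238107052 (minus), by 3.37, at chr2:8823778-8824592 (plus), by 3.26, and at chr1:91852773-91853155 (minus), by 3.22. At all 5 the lowest cisplatin library was above the highest DMSO library. Among the 10 isolated ends with the longest stretches bounded by a core end, most passed no test of the end itself. The exceptions in H358 were chr1:120543891-120544081 (minus), after 23223.1 kb, which rose from 4.75, 3.44 and 4.35 to 20.8, 42.4 and 29.0 CPM (2.86 ± 0.34, adjusted p = 7.96e-07), and chr5:16665405-16665959 (minus), after 14735.2 kb, which fell from 43.8, 29.5 and 16.1 to 5.46, 9.53 and 5.70 CPM (-2.16 ± 0.37, adjusted p = 0.000129).

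How many rose depended on the scaling, which sets the median of all peaks. Scaled by list totals, the median of all tested peaks was -0.51 and 107 isolated ends rose and 836 fell. With all peaks of a mean count of at least 5 in the model the median was -0.53, and 75 rose and 658 fell.

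**Figure D1:**
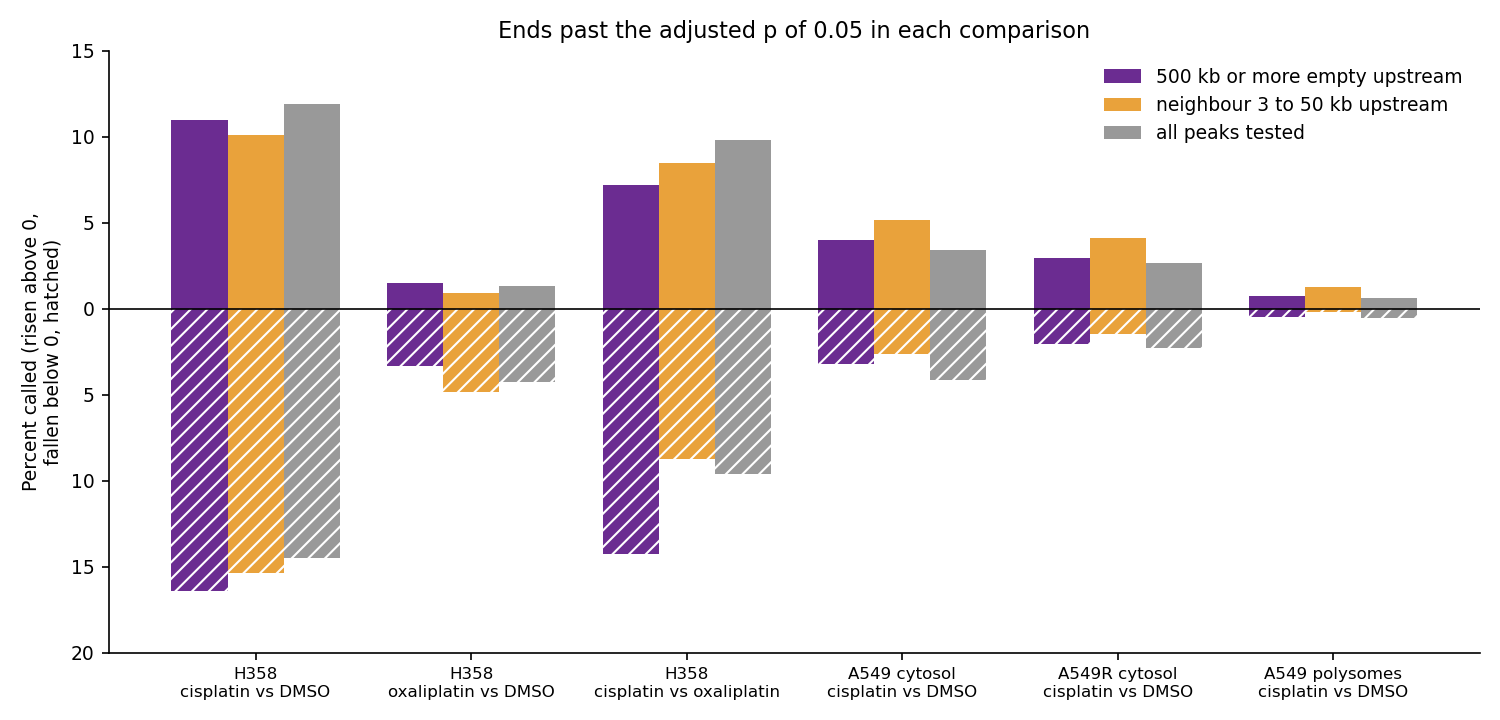
Percent of ends past the adjusted p of 0.05 (edgeR quasi-likelihood test) in each comparison, risen above 0 and fallen below 0 (hatched), for the 2385 isolated ends, the 2491 close ends and all peaks tested. In H358 cisplatin against DMSO, 10.99% of isolated ends rose and 16.4% fell, beside 11.9% and 14.5% of all peaks, and in cytosol and polysomes few ends of any class were called.

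Oxaliplatin at the same dose raised 36 and lowered 80 of the 2385 isolated ends, with a median change of 0.09. Over all 14358 peaks 1.3% rose and 4.23% fell (5.54% in all), with a median of 0.00, and 23 close ends rose and 121 fell, with a median of -0.03. The 881 ends isolated on both sides had a median of 0.14 (13 rose, 34 fell), and the 783 ends with stretches of 2 Mb or more had a median of 0.13. With the replicate number as a block, which the deviations of same-numbered libraries allowed here, 217 isolated ends rose and 194 fell, where 6.78% of all peaks rose and 10.1% fell.

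At single isolated ends, oxaliplatin's largest rise was at chr7:112115479-112116264 (plus), from 10.7, 23.2 and 17.1 CPM with DMSO to 53.8, 74.0 and 55.8 (1.84 ± 0.28, adjusted p = 0.000125), with 26.04, 26.5 and 27.1 under cisplatin. Among ends with no part left out of all short lists, as defined below, its steepest fall was at chr17:78973534-78973966 (plus). That end went from 18.7, 16.0 and 26.3 to 1.22, 1.45 and 2.55 CPM (-3.50 ± 0.39, edgeR adjusted p = 1.1e-06). Next to it, chr1:229840899-229841254 (minus) went from 15.7, 28.5 and 16.6 to 1.75, 2.49 and 1.44 CPM (-3.43 ± 0.37, adjusted p = 8.8e-07). DMSO and oxaliplatin libraries did not overlap at these 3 ends. Cisplatin lowered both of the falling ends too, by 2.47 and 2.92 on the log2 scale. The same holds for chr3:126755860-126756237 (plus), which oxaliplatin brought to 4.02, 1.24 and 5.26 CPM (-2.60 ± 0.39, adjusted p = 8.77e-05).

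Some oxaliplatin values followed the list kind. In 17 isolated ends (0.713%), 9 close ends and 46 core ends, at least 20 bases of the merged peak were listed in at least 8 of the 16 long lists and in none of the 11 short ones. Of the 80 isolated ends that fell with oxaliplatin, 5 (6.25%) were of this kind, among them the steepest of all, chr8:62491074-62492517 (plus). It had 286, 241 and 276 CPM with DMSO and 181, 253 and 224 with cisplatin but 4.90, 4.14 and 2.71 with oxaliplatin, and in cytosol 262, 207 and 199 in A549R DMSO, with long lists, against 19.4, 14.5 and 4.39 in A549 DMSO, with short lists. At chr10:82006310-82007526 (minus) DMSO gave 273, 226 and 176 CPM and oxaliplatin 3.15, 5.18 and 3.19. The chr2:58687650-58689121 (minus) and chr3:142545877-142546508 (minus) ends, with fitted changes of -3.73 and -3.60, were like these. Such values are not read as changes with the drug. A part missing from the oxaliplatin lists but held by any other short list would not be found by this rule.

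The oxaliplatin counts rested on scaling and on single libraries. Scaled by list totals the median of all peaks was 0.45, and 504 isolated ends rose and 30 fell; with all peaks of a mean count of at least 5 it was -0.69, and 1 rose and 758 fell. Without oxaliplatin replicate 2 or 3 or DMSO replicate 1, 1.93%, 2.18% and 1.84% of isolated ends were called, and without DMSO replicate 2, 7.38%, where the full set gave 4.86%. The median of isolated ends minus that of close ends, 0.12, was 0.03 without oxaliplatin replicate 2, 0.05 without DMSO replicate 1 and 0.23 without DMSO replicate 2.

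Cisplatin and oxaliplatin differ in the ligands around the platinum: cisplatin carries ammine ligands and chloride leaving groups, oxaliplatin a diaminocyclohexane carrier and an oxalate leaving group. Set against each other at the matched dose in H358, the single pair of compounds compared, with p adjusted over all 14358 peaks, 172 isolated ends were higher with cisplatin and 340 lower, with a median difference of -0.15. Of all peaks 9.79% were higher and 9.63% lower (19.4% in all), with a median of -0.02, and of the close ends 211 were higher and 217 lower, with a median of -0.04. Among core ends of middle level 39 isolated ends were higher and 165 lower (median -0.31), against 54 and 81 close ends (median -0.10). Among high ends the medians were near each other, -0.06 for isolated ends (82 higher, 91 lower) and -0.03 for close ends (105 higher, 109 lower). Among low ends they were -0.12 (51 higher, 84 lower) and 0.02 (52 higher, 27 lower). The 2 drug comparisons share their DMSO libraries, so the values are set side by side only.

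At chr8:118811597-118812143 (minus), oxaliplatin libraries held 59.6, 35.6 and 48.6 CPM, against 6.94, 5.82 and 3.32 with cisplatin (-3.11 ± 0.33, adjusted p = 1.78e-07), and oxaliplatin's own change from DMSO was -0.46 (adjusted p = 0.319). At chr2:31133328-31133662 (minus) cisplatin gave 1.49, 7.94 and 4.75 CPM and oxaliplatin 37.9, 25.3 and 39.4 (-3.01 ± 0.41, adjusted p = 1e-05), with DMSO at 42.5, 30.2 and 25.3. At both ends the drugs did not overlap, and oxaliplatin libraries overlapped the DMSO range. In the other direction, chr2:8823778-8824592 (plus) had 83.8, 124 and 119 CPM with cisplatin and 7.69, 10.2 and 9.09 with oxaliplatin (3.60 ± 0.28, adjusted p = 8.67e-10), with 12.6, 11.9 and 9.21 in DMSO. At chr1:108113320-108113604 (minus) the drugs moved apart: DMSO gave 23.9, 36.4 and 54.2 CPM, cisplatin 54.8, 121 and 192 (1.69 ± 0.35, adjusted p = 0.0013) and oxaliplatin 12.2, 11.6 and 12.4 (-1.65 ± 0.37, adjusted p = 0.00976). This end had no part left out of all short lists. Nor had chr2:230045415-230045746 (minus), at 45.6, 101 and 121 CPM with cisplatin and 5.77, 3.52 and 7.34 with oxaliplatin (3.97 ± 0.39, edgeR adjusted p = 9.47e-08).

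Of the isolated ends higher with cisplatin, 7 of 172 had a part left out of short lists, as had 1 of the 340 lower. Centred on core ends only, 218 isolated ends were higher and 263 lower; with list totals the median of all peaks was -0.94, with 49 higher and 1603 lower, and with all peaks 0.17, with 284 higher and 221 lower, so the balance between the drugs turns with the scaling. Without cisplatin replicate 2, 13.7% of isolated ends were called in place of 21.5%, and without oxaliplatin replicate 2 the median of isolated ends minus that of close ends was -0.05 in place of -0.11.

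In A549 cytosol, where cytosolic RNA of the sensitive line was measured after cisplatin, 96 isolated ends rose and 76 fell, with a median change of 0.06. Of all 16439 peaks 3.43% rose and 4.12% fell (7.55% in all), with a median of 0.01. Of the close ends 129 rose and 66 fell, with a median of 0.13. With the replicate block, for which same-numbered libraries deviated together, 160 isolated ends rose and 135 fell, where 5.56% and 6.71% of all peaks did. In A549R cytosol 71 rose and 49 fell, with a median of 0.08, beside 2.66% and 2.29% of all peaks (4.96% in all), and 103 close ends rose and 37 fell, with a median of 0.13. With the block, 125 and 95 isolated ends were called there, where 5.18% of all peaks rose and 4.77% fell.

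The largest cytosolic falls of isolated ends passed in both lines. The end chr7:133750158-133750521 (plus), after a stretch of 2577.36 kb, had 42.1, 32.1 and 38.2 CPM in A549 with DMSO and 1.67, 3.67 and 5.55 with cisplatin (-3.37 ± 0.33, adjusted p = 5.77e-05). In A549R it had 25.8, 20.7 and 25.3 CPM and then 1.85, 3.52 and 3.07 (-3.09 ± 0.35, adjusted p = 0.000224). All cisplatin libraries were below all DMSO libraries of their line at this end. At chr10:76468066-76469065 (plus) A549 values went from 31.5, 31.9 and 30.1 to 5.30, 3.06 and 2.94 CPM (-3.05 ± 0.33, adjusted p = 9.9e-05), and A549R values from 43.6, 51.0 and 38.0 to 4.39, 8.94 and 11.7 (-2.43 ± 0.31, adjusted p = 0.000473). The chr2:28561347-28561834 (plus) end went from 35.4, 34.3 and 33.4 to 5.58, 2.45 and 5.55 CPM in A549 (-2.96 ± 0.34, adjusted p = 0.000147) and fell by 1.95 on the log2 scale in A549R. The chr7:127732044-127732672 (plus) end, just inside the limit, went from 107, 96.4 and 112 to 20.1, 12.0 and 14.0 CPM in A549 (-2.77 ± 0.26, adjusted p = 5.1e-05) and from 84.7, 79.4 and 80.4 to 15.2, 17.3 and 30.1 in A549R.

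Rising isolated ends in cytosol included chr11:47260341-47260867 (plus), from 23.5, 28.7 and 48.6 to 115, 115 and 117 CPM in A549 (1.80 ± 0.25, adjusted p = 0.000832) and from 34.2, 58.0 and 50.0 to 166, 138 and 153 in A549R (1.69 ± 0.25, adjusted p = 0.0015). At chr15:63449567-63449756 (minus) values went from 41.0, 36.2 and 56.1 to 120, 117 and 137 CPM in A549 (1.49 ± 0.19, adjusted p = 0.000458) and from 23.6, 30.3 and 22.8 to 107, 109 and 103 in A549R (2.05 ± 0.20, adjusted p = 4.69e-05). In both lines all cisplatin libraries were above all DMSO libraries at these 2 ends. The chr9:124101258-124101804 (minus) end rose in A549R from 12.0, 20.2 and 12.7 to 83.4, 73.2 and 48.5 CPM (2.173 ± 0.292, adjusted p = 0.00075).

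The response of isolated ends was not shown to differ between A549R and A549. The difference of the 2 responses called 0 of 2385 isolated ends and 0% of all peaks in edgeR, and 0 in DESeq2, with the replicate block and with RLE scaling. At an unadjusted p under 0.05, 32 isolated ends (1.34%) and 288 of 16439 peaks passed. The median 95% half-width of that difference was 0.76 on the log2 scale. That width is for a single end, and a call also had to pass the adjustment over all 16439 peaks. At a typical end, differences of that size, and somewhat larger ones, could therefore have been missed.

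The cytosol splits were sensitive too. Centred on core ends only, 82 isolated ends rose and 99 fell in A549 and 55 rose and 69 fell in A549R, which turns the balance in both lines. In A549, leaving out cisplatin replicate 2 or 3 or DMSO replicate 1 or 2 gave 3.02%, 3.10%, 4.19% and 3.10% of isolated ends called in place of 7.21%, and in A549R leaving out cisplatin replicate 1 or 2 or DMSO replicate 1 or 2 gave 1.89%, 1.80%, 1.68% and 1.89% in place of 5.03%.

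On heavy polysomes, cisplatin raised 18 isolated ends and lowered 11, with a median change of 0.08. Of all 21585 peaks 0.644% rose and 0.542% fell (1.19% in all), and 31 close ends rose and 5 fell, with a median of 0.13. With the replicate block, for which same-numbered libraries deviated together, 144 isolated ends rose and 103 fell, where 4.81% and 5.37% of all peaks did. The chr7:133750158-133750521 (plus) end went from 148, 129 and 132 CPM with DMSO to 4.05, 6.33 and 10.2 with cisplatin (-4.28 ± 0.33, adjusted p = 0.00063). The chr7:127732044-127732672 (plus) end went from 338, 366 and 330 to 69.1, 69.8 and 33.8 CPM (-2.58 ± 0.28, adjusted p = 0.00233), and chr2:28561347-28561834 (plus) from 63.9, 58.0 and 52.8 to 10.9, 10.4 and 4.92 (-2.74 ± 0.32, adjusted p = 0.00303). Treatments did not overlap at these ends.

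Among rises, chr11:47260341-47260867 (plus) went from 41.2, 41.8 and 56.8 CPM on polysomes to 246, 225 and 150 (2.15 ± 0.25, adjusted p = 0.00303). The chr18:21741386-21741571 (plus) end went from 16.1, 17.7 and 16.3 to 59.8, 53.3 and 71.0 CPM (1.88 ± 0.23, adjusted p = 0.0047). Both rises were larger than the spread within either treatment. A rise at chr15:63449567-63449756 (minus), from 9.13, 5.84 and 3.42 to 17.7, 24.2 and 29.7 CPM (adjusted p = 0.0367), was lost when any 1 library was left out. At chr7:132719253-132720701 (minus), among the 5 highest ends, polysome DMSO replicate 3 held 73.9 CPM where the other polysome libraries held 1895 to 2139, and the fitted change of 0.50 ± 1.18 rests on that library. List totals as scaling left 0 risen and 3 fallen isolated ends. Leaving out cisplatin replicate 1 or 2 or DMSO replicate 1 or 2 gave 0.419%, 0.713%, 0.419% and 0.252% called in place of 1.22%.

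Some isolated ends were called in more than one line, and the lines share no libraries. Of the 76 isolated ends that fell in A549 cytosol, 58 also fell in H358 (76.3% of the A549 list and 14.8% of the 392 in H358), and 1 rose there. Of the 320 falls in A549 among all 11012 peaks tested in both, 225 also fell in H358 (70.3% and 12.8%), and of 66 falls among close ends 51 did (77.3% and 13.3%). Of the 96 isolated ends that rose in A549, 27 also rose in H358 (28.1% and 10.3% of the 2 lists), and 5 fell, where 29.4% and 11.8% of the 2 lists of all peaks were shared rises. Between A549 and A549R, 33 falls of isolated ends were shared (43.4% and 67.3%) and 48 rises (50% and 67.6%), with 0 in opposite directions. For all peaks these shares were 37.7% and 67.6% of falls and 48.9% and 63.0% of rises. Between A549 cytosol and polysomes, 17 of 18 polysome rises and 9 of 11 falls of isolated ends were shared, and 106 of 113 and 61 of 74 over all peaks tested in both. In all 3 cisplatin comparisons outside polysomes, 11 isolated ends rose (0.461%) and 29 fell (1.22%), where 0.554% and 0.826% of all peaks did and 19 and 16 of the 2491 close ends. The shares of isolated ends, close ends and all peaks were not tested against each other.

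The ends that fell in all 3 included chr8:118811597-118812143 (minus), which in A549 went from 17.5, 17.3 and 36.1 to 7.25, 1.63 and 2.94 CPM (-2.59 ± 0.47, adjusted p = 0.00498) and in A549R from 34.9, 39.0 and 25.3 to 8.31, 5.69 and 3.68 (-2.48 ± 0.44, adjusted p = 0.00585). In H358, chr10:76468066-76469065 (plus) went from 40.5, 59.0 and 43.5 to 2.98, 13.8 and 2.37 CPM (-3.03 ± 0.42, adjusted p = 1.05e-05), with 39.3, 47.5 and 40.5 under oxaliplatin. There chr7:133750158-133750521 (plus) went from 20.9, 19.6 and 13.3 to 1.49, 6.35 and 2.85 CPM (-2.48 ± 0.43, adjusted p = 0.000121), and oxaliplatin, at 9.62, 6.63 and 5.58, lowered it too (-1.31 ± 0.35, adjusted p = 0.0272). Cisplatin libraries lay below every DMSO library of the same line at these 3 ends.

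The largest rise common to all 3 was at chr18:57569898-57571551 (plus), which has no core end for 743.807 kb upstream or for 4082.72 kb downstream. In H358 it went from 36.2, 70.4 and 32.0 to 250, 384 and 301 CPM (2.74 ± 0.30, adjusted p = 2.81e-07), with 57.3, 105 and 77.7 under oxaliplatin. In A549 it went from 18.8, 27.7 and 18.6 to 69.1, 104 and 216 CPM (2.57 ± 0.41, adjusted p = 0.0042), and in A549R from 27.8, 34.4 and 21.5 to 118, 199 and 92.7 (2.27 ± 0.41, adjusted p = 0.00914). The A549R call was lost without DMSO replicate 1 (adjusted p = 0.0578). On polysomes the values were 4.41, 6.43 and 11.4 with DMSO and 25.8, 27.9 and 93.3 with cisplatin (adjusted p = 0.092). Smaller common rises were at chr18:21741386-21741571 (plus), chr11:82645286-82645707 (plus), chr2:30381880-30382478 (plus) and chr2:27875797-27876623 (minus), with log2 changes from 0.96 to 1.77.

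**Figure D2:**
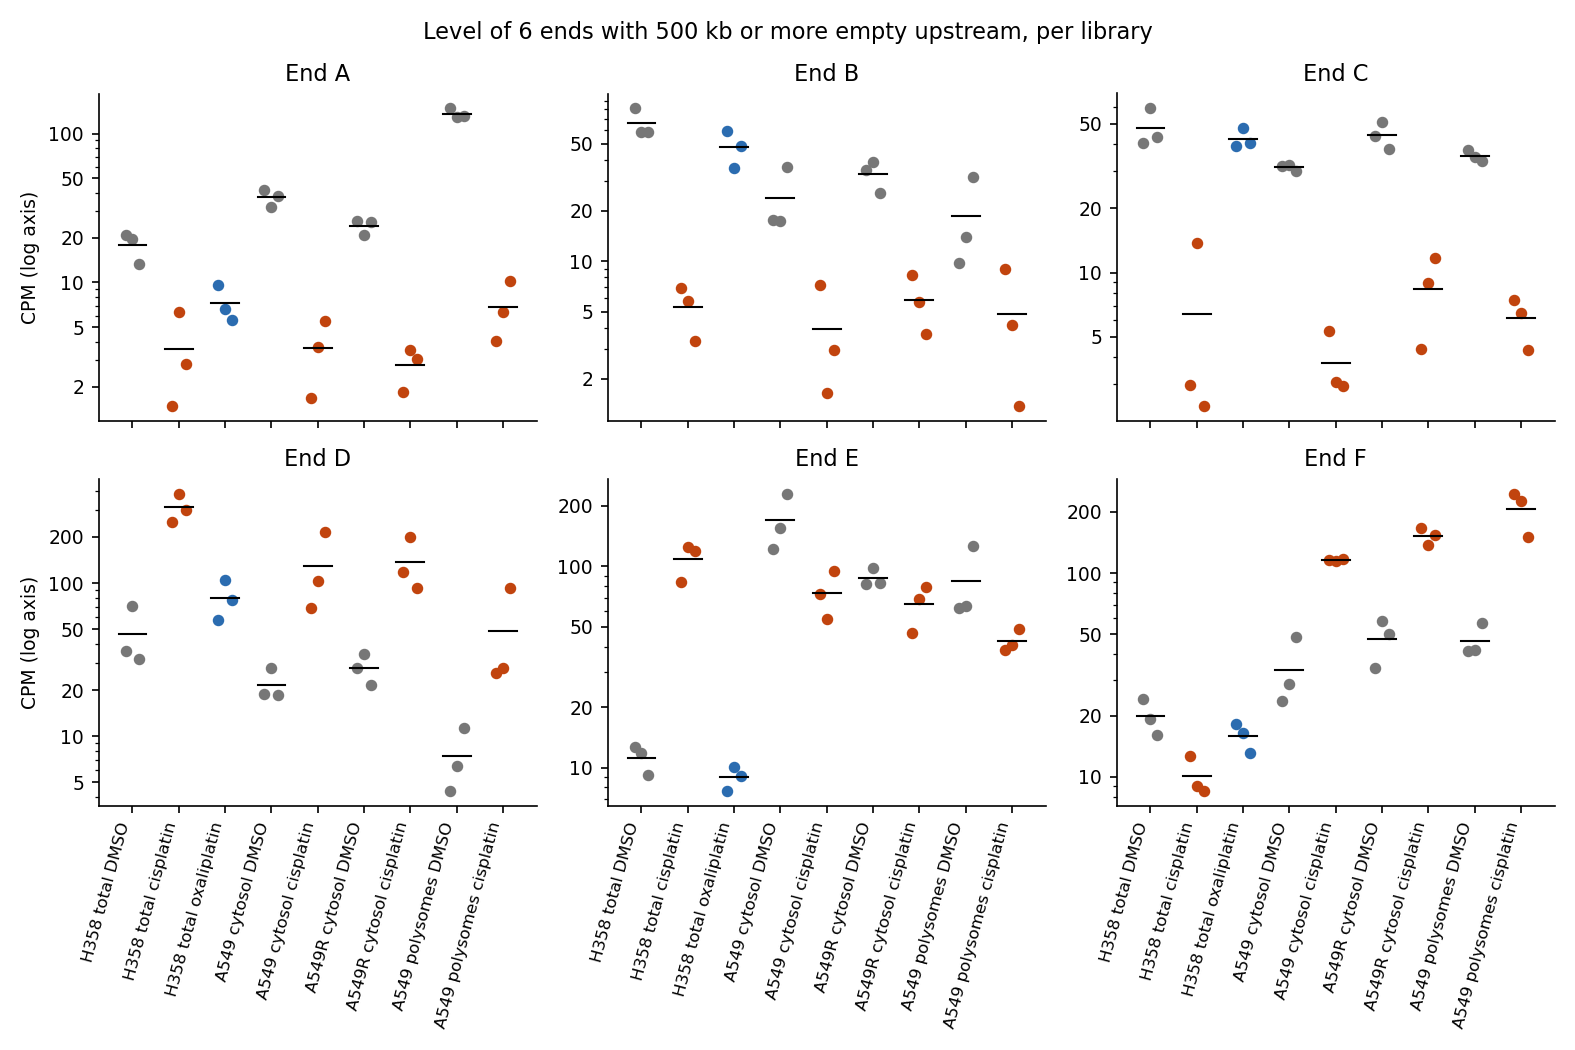
Level of 6 isolated ends in each of the 27 libraries, in CPM on a log axis scaled within H358, cytosol and polysomes; points are libraries and lines are means of 3. A is chr7:133750158-133750521 (plus), B chr8:118811597-118812143 (minus), C chr10:76468066-76469065 (plus), D chr18:57569898-57571551 (plus), E chr2:8823778-8824592 (plus) and F chr11:47260341-47260867 (plus); A to C are lower with cisplatin in every set of libraries, D is higher, and E and F move in opposite directions in H358 and A549.

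Set against close ends within each library, isolated ends stood lower with cisplatin than with DMSO in A549, A549R and polysomes. The measure is the median log2 CPM of isolated ends minus that of close ends, which does not depend on the scaling. In A549 cytosol it was -0.44, -0.52 and -0.46 with DMSO and -0.59, -0.68 and -0.65 with cisplatin. In A549R it was -0.41, -0.44 and -0.49 with DMSO and -0.59, -0.63 and -0.56 with cisplatin. On polysomes it was -0.66, -0.65 and -0.60 with DMSO and -0.76, -0.76 and -0.73 with cisplatin. In each of these 3 the treatments did not overlap. Group means went from -0.47 to -0.64 in A549, from -0.44 to -0.59 in A549R and from -0.64 to -0.75 on polysomes. Taken end by end the shift was smaller. The median change of isolated ends minus that of close ends was -0.07 in A549, -0.06 in A549R and -0.05 on polysomes. The median level of isolated ends itself stayed at 4.30 in A549 while that of close ends went from 4.77 to 4.94, and on polysomes the 2 medians went from 4.17 to 4.26 and from 4.81 to 5.01. Since levels are relative within a library, a rise of close ends and a fall of isolated ends cannot be told apart. In each of these sets, core ends with an upstream neighbour within 3 kb or at 100 to 500 kb also had lower median changes than close ends. The values are given below, and the lower standing was not particular to isolated ends.

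Isolated ends are the weaker class, so the same difference was taken within low, middle and high core ends separately, a split chosen after the data were seen. Among middle ends it went from -0.0050 ± 0.040 to -0.13 ± 0.04 in A549 (SD, n = 3), from 0.04 ± 0.01 to -0.08 ± 0.03 in A549R and from 0.00 ± 0.02 to -0.10 ± 0.03 on polysomes, without overlap. Among high ends it went from -0.22 ± 0.03 to -0.29 ± 0.07 in A549 and from -0.21 ± 0.04 to -0.29 ± 0.05 on polysomes, both with overlap, and from -0.19 ± 0.03 to -0.27 ± 0.03 in A549R, without. Among low ends the treatments overlapped in all 3, with means on polysomes of -0.13 in both. Median changes of high ends were 0.11 for isolated and 0.13 for close ends in A549, and 0.11 and 0.12 in A549R, nearer to each other than over all levels. On polysomes they were 0.03 and 0.11, further apart than over all levels (0.08 and 0.13).

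In H358 the same difference overlapped between DMSO and each drug. Every cisplatin library, with long lists, was below every oxaliplatin library, with short lists. It was -1.04, -0.66 and -0.93 with DMSO, -0.97, -0.91 and -0.89 with cisplatin and -0.86, -0.54 and -0.86 with oxaliplatin. DMSO replicate 2 and oxaliplatin replicate 2 stood above the other H358 libraries. Each oxaliplatin library was above the DMSO library of its number.

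The difference was smaller against other comparison ends and was seen in part on the other side of the ends. Against core ends with a neighbour 50 to 200 kb upstream, the mean difference went from -0.11 to -0.19 in A549, from -0.09 to -0.16 in A549R and from -0.39 to -0.42 on polysomes. The treatments overlapped in A549 and on polysomes and did not in A549R. Core ends empty for 500 kb downstream, set against those with a neighbour 3 to 50 kb downstream, went from -0.06 ± 0.02 to -0.13 ± 0.05 in A549 (SD, n = 3), from 0.00 ± 0.08 to -0.06 ± 0.03 in A549R and from -0.21 ± 0.10 to -0.27 ± 0.02 on polysomes. There the treatments overlapped in A549R and on polysomes and did not in A549. Isolated ends' share of all counts in core ends went from 17.7% ± 0.10 to 17.003% ± 0.26 in A549 and from 19.7% ± 0.21 to 18.6% ± 0.11 in A549R, and on polysomes it was 16.8% ± 0.18 and 16.6% ± 0.26. In H358 these measures went the other way with cisplatin, each with overlap. The share went from 14.6% ± 0.95 to 15.3% ± 0.41. The difference against ends with a neighbour at 50 to 200 kb went from -0.43 to -0.35, and the downstream one from -0.25 to -0.21.

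**Figure D3:**
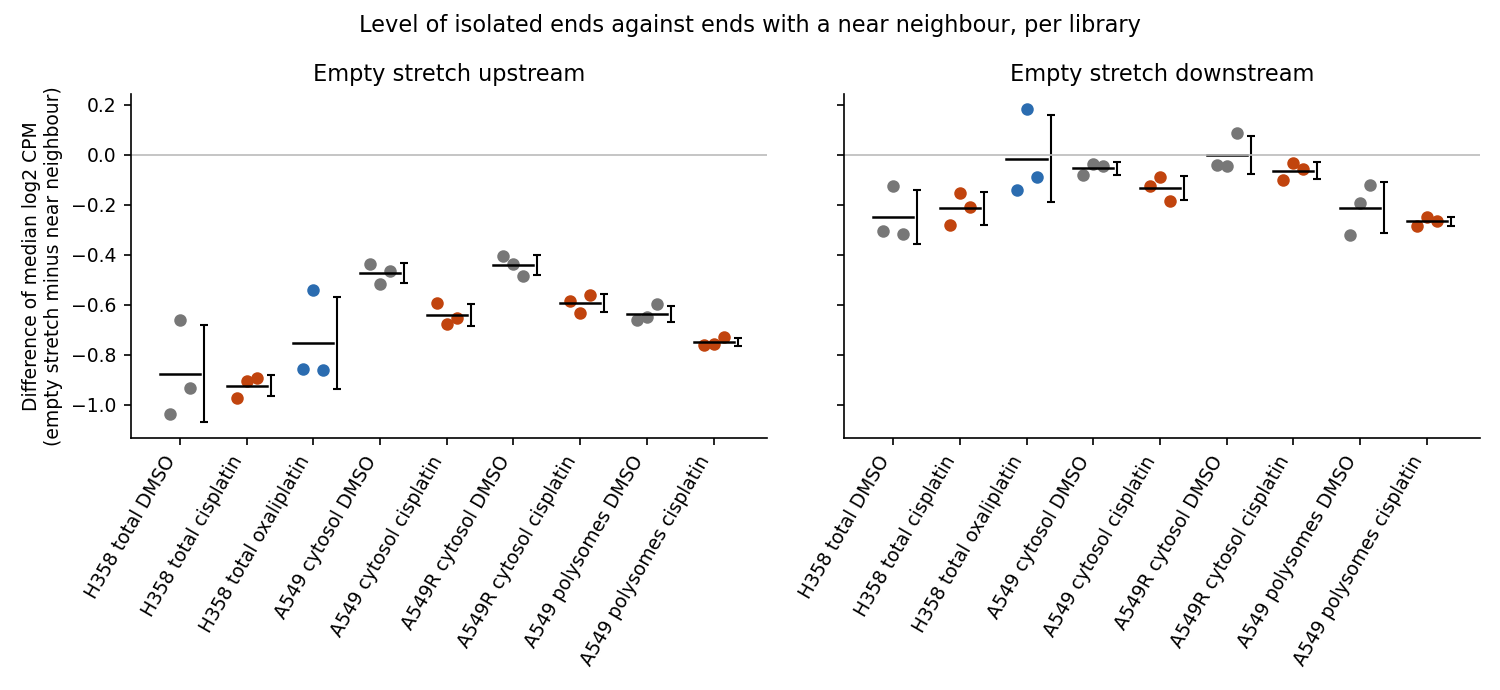
Difference of median log2 CPM between ends with a 500 kb empty stretch and ends with a neighbour at 3 to 50 kb, for the upstream side (isolated minus close ends, left) and the downstream mirror (right); points are libraries, lines means of 3 and bars ± SD. On the upstream side, cisplatin libraries lie below DMSO libraries without overlap in A549, A549R and polysomes. In H358, DMSO overlaps both drugs, and cisplatin libraries lie below oxaliplatin libraries.

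The change was also read across all gaps. With oxaliplatin the median change of core ends was -0.04 for an upstream neighbour within 3 kb, -0.10 at 50 to 100 kb, 0.07 at 500 kb to 1 Mb and 0.13 for a stretch of 2 Mb or more. Over downstream gaps it was -0.05 within 3 kb, -0.09 at 3 to 10 kb and 0.15 at 2 Mb or more. The 2377 core ends empty downstream had a median of 0.11 with oxaliplatin, against -0.09 for the 2491 with a downstream neighbour at 3 to 50 kb. On both sides of an end the bins of 500 kb or more had higher medians than every shorter bin. With cisplatin in H358 the lowest medians lay at upstream gaps of 100 to 200 kb (-0.22) and 200 to 500 kb (-0.21), and stretches of 2 Mb or more had -0.02. Cisplatin set against oxaliplatin gave -0.05 within 3 kb and -0.17, -0.17, -0.15 and -0.14 in the bins from 200 kb up. In A549 cytosol cisplatin gave medians of 0.01 within 3 kb upstream, 0.15 at 10 to 50 kb and 0.07 at 200 to 500 kb. From 500 kb up they were 0.06, 0.04 and 0.07. The same bins had 0.05, 0.15, 0.08, 0.08, 0.08 and 0.07 in A549R. On polysomes they had 0.01, 0.16, 0.11, 0.07, 0.08 and 0.09. In each of these sets the 10 to 50 kb bin was highest and the bin within 3 kb lowest.

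**Figure D4:**
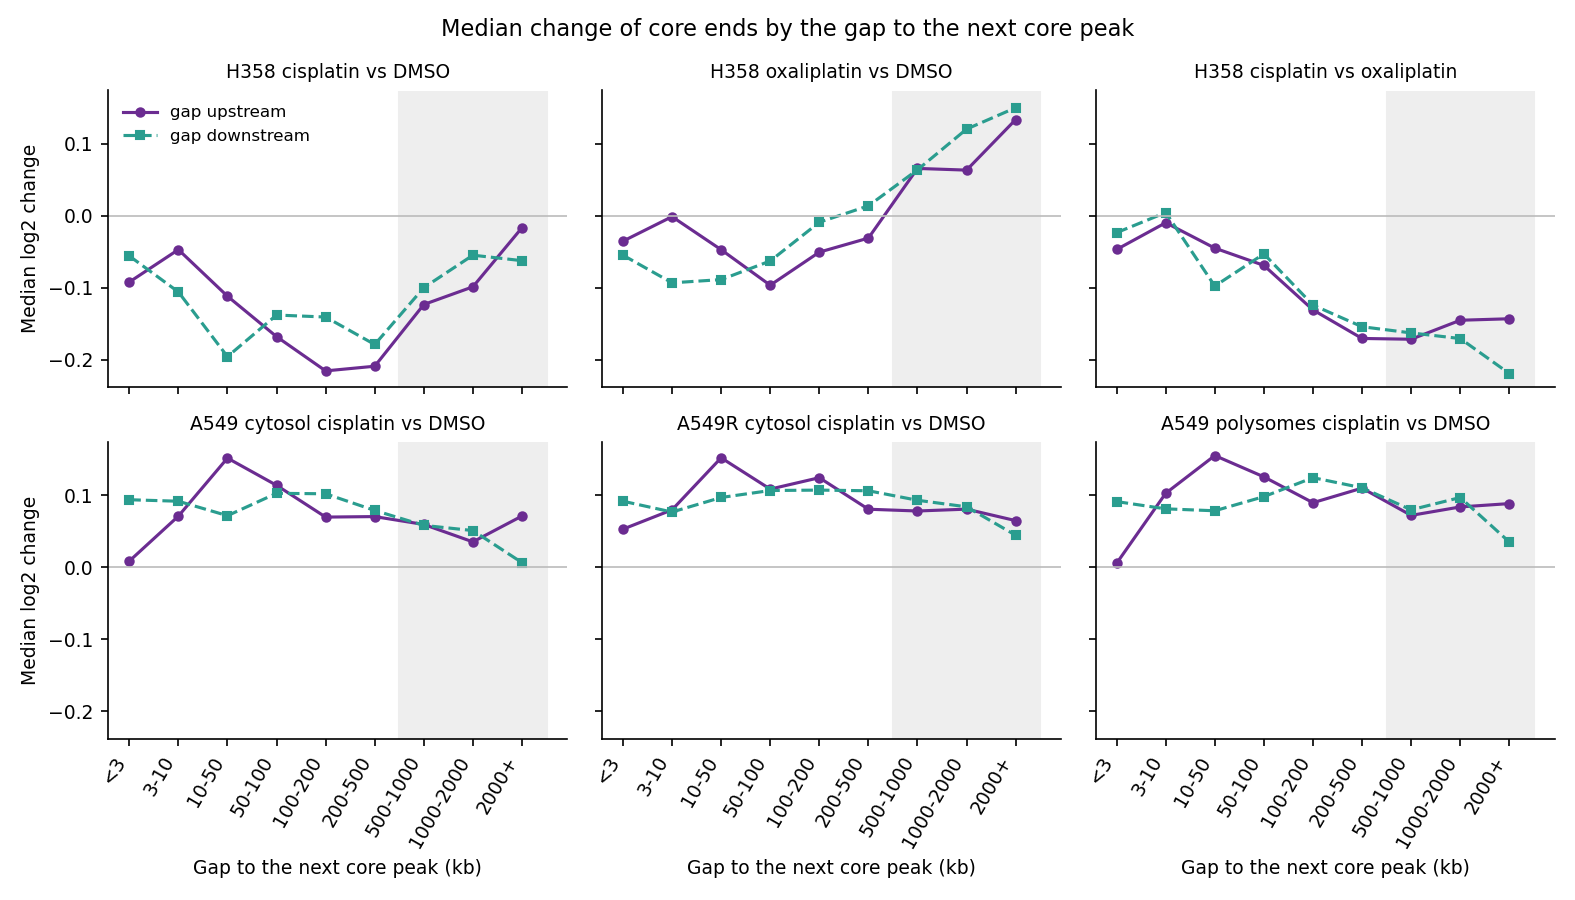
Median log2 change of core ends by the gap to the next core end on the same strand, upstream (solid) and downstream (dashed), for each comparison; the shaded bins are gaps of 500 kb or more. With oxaliplatin the upstream line is lowest at 50 to 100 kb (-0.10) and the downstream line at 3 to 10 kb (-0.09). At 2 Mb or more they stand at 0.13 upstream and 0.15 downstream. With cisplatin in H358 the upstream line is lowest between 100 and 500 kb.

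Last, the other listed peaks inside the stretch were set against the end itself, which asks whether counts moved from the end to places before it. Only groups with long lists throughout allow this, H358 DMSO and cisplatin and A549R DMSO and cisplatin. Even long lists leave out part of their peak numbers, and a peak not listed counted as 0. H358 lists held 78.2%, 78.3% and 79.4% of peak numbers with DMSO and 73.7%, 73.1% and 73.8% with cisplatin, without overlap. A549R lists held 76.6%, 76.0% and 77.5% with DMSO and 77.5%, 77.0% and 77.2% with cisplatin, which overlap. In H358, list completeness and cisplatin thus cannot be told apart in stretch counts. In H358, 50.5%, 49.9% and 52.3% of the counts of stretches and isolated ends together lay in the 500 kb stretches with DMSO, and 56.7%, 64.3% and 58.4% with cisplatin. The treatments did not overlap. In A549R the shares were 59.5%, 60.5% and 63.4% with DMSO and 59.9%, 57.8% and 61.6% with cisplatin, which overlap.

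Fitted with library terms, the stretch gained on its end at 317 of 2346 isolated ends in H358 and lost at 39, with a median of 0.63 (log2). Over all 6940 core ends tested 10.8% gained and 2.12% lost, with a median of 0.34, and close ends gained at 72 and lost at 35 of 1615, with a median of -0.21. Stretches before close ends are shorter and hold fewer peaks. In the first 50 kb before the end, 20 of 1584 isolated ends gained and 5 lost, with a median of -0.21, close ends gained at 22 and lost at 3 of 1615, with a median of -0.22, and 1.46% and 0.311% of all ends did. Within 50 kb, then, the medians of isolated and close ends were near each other.

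A gain stood on the downstream side too. Among the 881 ends isolated on both sides, the upstream stretch gained at 110 and lost at 18 of 858 (median 0.59), and the downstream stretch gained at 117 and lost at 19 of 838 (median 0.77), where 11.4% and 2.07% of all downstream stretches did. Counts in their upstream stretches went from 42.7% ± 1.15 to 52.1% ± 3.71 (SD, n = 3) and in their downstream stretches from 36.7% ± 1.104 to 48.7% ± 3.85. Limited to stretch peaks that at least 1 short list holds, 35 of 1854 isolated ends gained and 49 lost (median -0.61), beside 1.77% and 1.7% of all. Such peaks held 48.8% ± 1.87 of stretch counts with DMSO and 26.7% ± 4.32 with cisplatin.

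In A549R, 0 stretches of 2378 isolated ends passed the test in edgeR and 0% of all ends, and 0 with limma. At an unadjusted p under 0.05, 247 of them passed, beside 658 of all 7065 ends, and the median was -0.11 for isolated ends and -0.09 for all. In H358 the number of calls varied with the libraries used: without DMSO replicate 1, 2 or 3 or cisplatin replicate 2, 2.22%, 2.43%, 6.65% and 5.88% of isolated ends were called in place of 15.2%. The median was 0.70, 0.61, 0.59 and 0.46 in these 4 fits, beside 0.63 with all libraries.

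The following H358 stretches, among those that gained most and with counts in every library, were picked after their values were seen. Before chr20:48740287-48741205 (minus) the stretch held 27.7%, 31.3% and 19.8% of counts with DMSO and 83.5%, 94.9% and 92.3% with cisplatin (4.85 ± 0.55, adjusted p = 0.00372), and the end itself changed by -0.87. Before chr12:6346925-6347435 (plus) the shares were 8.15%, 7.04% and 15.9% and then 66.6%, 74.9% and 80.8% (4.75 ± 0.50, adjusted p = 0.00281). Before chr16:70721339-70721868 (minus) they were 21.3%, 22.2% and 15.2% and then 89.1%, 86.8% and 82.9% (4.72 ± 0.46, adjusted p = 0.00237). The last 2 ends fell themselves, by 1.77 and 2.83 on the log2 scale. In the opposite direction, the stretch before chr1:900809-901109 (plus) went from 50385, 41460 and 39700 counts to 44, 15 and 12 (-10.46, adjusted p = 2.58e-05). The end itself changed by 0.59 (edgeR adjusted p = 0.149). A high peak left out of the cisplatin lists, and so counted as 0, cannot be told apart here from a loss of RNA. All stretches of isolated ends together held 738895, 788158 and 451162 counts with DMSO.

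**Figure D5:**
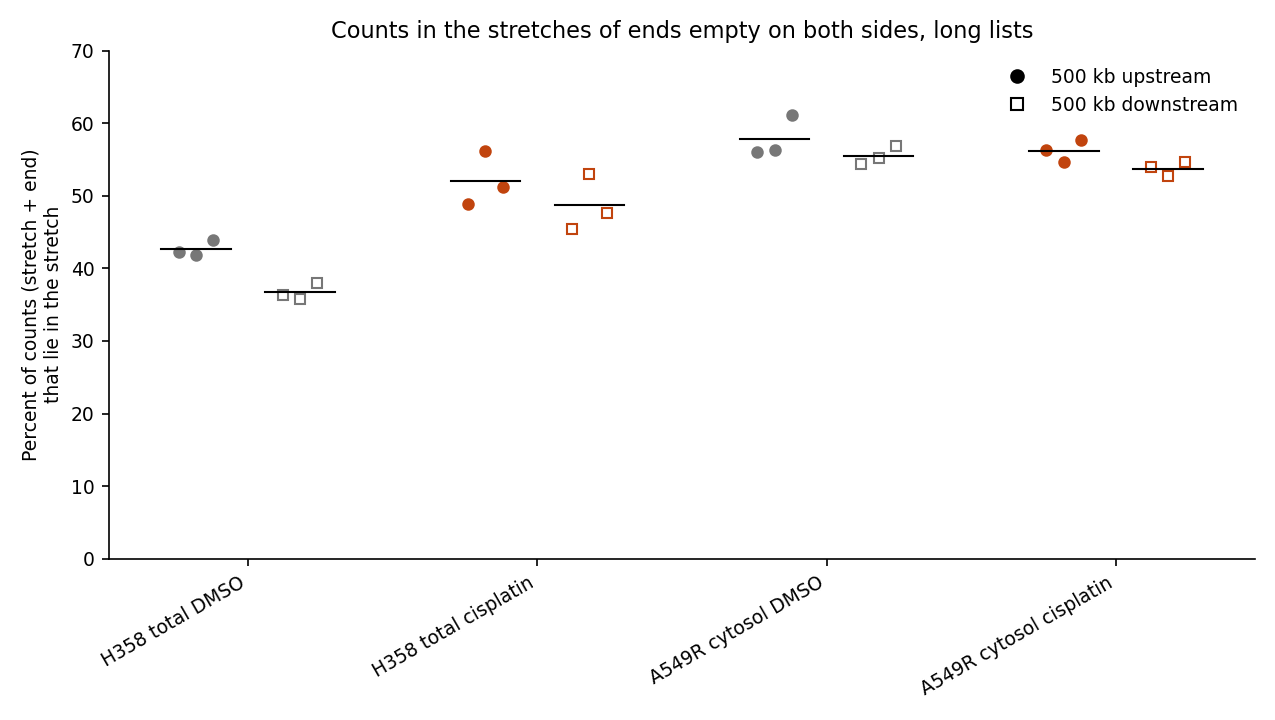
Percent of counts that lie in the 500 kb stretch, of all counts in stretch and end, for ends isolated on both sides, in the H358 and A549R groups whose lists are all long; filled points are upstream stretches and open squares downstream stretches of single libraries, 3 a group, and lines are means. In H358 both shares are higher with cisplatin, without overlap, and in A549R they overlap between treatments.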

How the data were processed

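RNA 3′ ends were measured by 3′-seq in 27 libraries. Per the labels' protocols, cDNA was primed by anchored oligo-dT, amplified by 16 PCR cycles and read as single ends of 50 bases. Bowtie2 2.2.5, bedtools 2.17.0 and SAMtools 1.1 are named, without roles, in the submitters' processing notes. The authors deposited 1 peak list per library with whole-number read counts per peak, not normalized and none under 5. No source used here gives the rules of peak calling. While these notes name the mouse build mm9, the highest positions (249237867 for chromosome 1, 51239739 for chromosome 22, 16571 for the mitochondrion) fit human hg19. No genome or annotation of that build was used here, so no sequence or gene name is printed.

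Counts were summed per merged peak in Python 3.11.15 (pandas 2.3.3, numpy 2.4.6) and fitted in R 4.3.3 with edgeR 4.0.16 (quasi-likelihood test, robust, TMM scaling, group means, Benjamini-Hochberg adjustment at 0.05) over every merged peak listed in all libraries of a fit: 14358 in H358 (9 libraries), 16439 in cytosol (12) and 21585 in polysomes (6). All 2385 isolated ends were tested in each, so p is adjusted over all peaks. SE is the log2 change divided by the square root of F. Stretch sums with a mean of at least 5 were set against ends in an edgeR model with a library term, and limma 3.58.1 (pseudocount 0.5) was an alternative, as were DESeq2 1.42.0, other scalings, filters, distances and leaving out each library. Figures were drawn with matplotlib 3.10.9. The fits were also run on simulated data with known changes, whose results are not given here. Depth was 3024814 to 11997535 counts per library, and a typical isolated end had 74 counts.

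Groups and replicate numbers are from the labels. Same-numbered libraries were taken as paired where every correlation of their deviations from the group means was over 0.1, as for oxaliplatin with DMSO (0.12 to 0.56), A549 (0.30 to 0.48), A549R (0.15 to 0.30) and polysomes (0.43 to 0.53); this pairing comes from the data, not from the labels.

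Named ends are the 10 with the longest bounded stretches, up to 5 rises and 5 falls per comparison past the threshold without overlap between groups, the 5 highest, the 5 on each side of the limit, and up to 5 in each direction called in H358, A549 and A549R with cisplatin. For oxaliplatin, ends with no part left out of all short lists were picked by the same rule after the data were seen. The isolated ends, the comparison ends and all lists were chosen with earlier results of these data known.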

Additional observations from a re-analysis of the deposited data

Results flagged for a closer look

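In H358 and A549 cytosol, 1 isolated end rose in the first and fell in the second and 5 did the opposite, beside 4 and 18 of all 11012 peaks tested in both. At 2 of these ends, both named above by size, cisplatin's change went one way in every H358 library and the opposite way in every A549 cytosol library. The difference between the lines was not tested, since the lines were fitted apart and differ in RNA fraction and list kind.

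The first is chr2:8823778-8824592 (plus). Its log2 change was 3.26 in H358, from 12.6, 11.9 and 9.21 CPM with DMSO to 83.8, 124 and 119 with cisplatin. In A549 cytosol it was -1.19, from 122, 155 and 230 to 72.5, 54.9 and 94.9 CPM (edgeR adjusted p = 0.0116). In A549R it was -0.44, from 82.0, 97.9 and 82.9 to 46.9, 68.6 and 79.2 CPM, which did not pass (edgeR adjusted p = 0.343).

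The second is chr11:47260341-47260867 (plus). Its log2 change was -0.95 in H358, from 24.2, 19.2 and 16.1 to 12.6, 9 and 8.54 CPM (edgeR adjusted p = 0.0254), against 1.80 in A549 and 1.69 in A549R, where every cisplatin library was above every DMSO library.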

How the results depend on the processing

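All values here are percentages of isolated ends called, unless named as medians. With the replicate block, which pairs same-numbered libraries, 17.2% were called for oxaliplatin, 12.4% in A549, 9.22% in A549R and 10.4% on polysomes, in place of 4.86%, 7.21%, 5.03% and 1.22%. Correlations did not support pairing for H358 cisplatin with DMSO (0.03 to 0.43) or with oxaliplatin (-0.10 to 0.30), where the block gave 380 risen and 531 fallen, and 262 higher and 506 lower. The block ended all calls of H358 stretches against ends (value below); no other comparison and no named end lost its call with it.

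Scaling by list totals gave 22.4% for oxaliplatin, 69.3% for cisplatin against oxaliplatin and 0.126% on polysomes. Fitting every peak that averages 5 counts or more gave 31.8% for oxaliplatin, 1.76% in A549, 1.13% in A549R and 0% on polysomes. Polysomes gave 3.10% with DESeq2 and 0.751% with stretches of 1 Mb or more, and against ends with a neighbour at 50 to 200 kb the difference of medians was -0.023 in place of -0.049.

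For stretches against ends in H358 (15.2%), summing 250 kb gave 9.66%, limma 0% with the replicate block and 9.46% unpaired. Chosen after seeing the data, the first 50 kb alone gave 1.58%, peaks of at least 1 short list 4.53%, and in A549R peaks beyond 3 kb gave 0.0421%. The cause of these shifts was not tested.

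Leaving out 1 library gave 18.99% to 26.9% for H358 cisplatin, 1.84% to 7.38% for oxaliplatin, 13.7% to 16.9% for cisplatin against oxaliplatin, 3.02% to 9.39% in A549, 1.68% to 7.38% in A549R, 0% to 0% for the difference between A549R and A549, 0.252% to 1.17% on polysomes, and for stretches 2.22% to 13.9% in H358 and 0% to 0.0421% in A549R. The median of isolated minus that of close ends ran from -0.06 to 0.12 for H358 cisplatin, 0.03 to 0.23 for oxaliplatin, -0.17 to -0.05 for cisplatin against oxaliplatin, -0.10 to -0.04 in A549, -0.08 to -0.04 in A549R, -0.0065 to 0.050 for A549R against A549 and -0.06 to -0.04 on polysomes. Of the alternatives for single named ends, 693 kept the call, 76 lost it and 0 changed sign. Lists start at 5 counts, so complete losses cannot be seen.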

Other observations

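The chr10:5149645-5149920 (plus) end had 2.23, 2.15 and 1.53 CPM in H358 with DMSO, 5.21, 4.77 and 5.22 with cisplatin and 4.02, 5.39 and 6.70 with oxaliplatin, and it rose with both drugs in edgeR (1.32 ± 0.38, adjusted p = 0.0124, and 1.41 ± 0.35, adjusted p = 0.0171). In A549 cytosol, on a scale of its own, it had 1781, 1888 and 1502 CPM with DMSO. There cisplatin gave 1184, 1172 and 709.6 CPM, with no overlap, but the change of -0.75 did not pass (adjusted p = 0.221).

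Further rises in cytosol were at a pair of ends, for which the difference from H358 was not tested. The chr12:105388249-105388605 (plus) end went from 137, 127 and 182 to 335, 471 and 802 CPM in A549 (1.85 ± 0.32, edgeR adjusted p = 0.00503) and from 132, 148 and 68.4 to 454, 469 and 404 in A549R (1.92 ± 0.32, adjusted p = 0.00537), and its H358 change was 0.36 (adjusted p = 0.27). The chr3:152882259-152882528 (plus) end rose from 3.67, 4.82 and 4.05 to 11.2, 15.9 and 28.4 CPM in A549 (2.12 ± 0.39, adjusted p = 0.00453) and fell by 1.18 on the log2 scale in H358, where the groups overlap.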
